A study of Mus musculus with 48 samples.

Results

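The genes described here carry triglyceride through the blood in lipoprotein particles: Apob, Mttp, Apoc1, Apoc2, Apoc3, Apoe, Apoa4, Apoa5 and Lpl. They were chosen by symbol, as all genes of that name in the count table, and were read across every treatment and time of the study. The table listed 23930 genes. Of the 9 symbols, 7 had a row (Apob, Mttp, Apoc1, Apoc3, Apoe, Apoa5 and Lpl), and all 7 passed the filter on low counts, which left 12672 genes for testing. Apoc2 and Apoa4 were not analysed here.

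Mouse livers were sampled 24 h, 72 h and 168 h (days 1, 3 and 7) after the first dose of PBS, the vehicle, or of 1 of 3 antisense oligonucleotides (LX-A3928, LX-A2003 or LX-A1656). Each is a gapmer, a strand whose DNA-like centre lets the cell enzyme RNase H cut the transcript it pairs with, and the target of all of them is Scarb1, the receptor that takes cholesterol esters from high-density lipoprotein into hepatocytes. The 12 groups had 4 libraries each, 48 in all. The labels give no strain, sex, age, dose or oligonucleotide sequence, so a difference between compounds cannot be told apart from a difference in dose. The labels do not say that replicates were separate animals, so p-values measure only how far these samples scatter, and that scatter may be technical. Because whole liver was read, fewer cells of a type and less RNA per cell cannot be told apart.

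As background, the hepatocyte builds very-low-density lipoprotein around apolipoprotein B (Apob), which is loaded with triglyceride in the endoplasmic reticulum by the microsomal triglyceride transfer protein (Mttp). In the blood, lipoprotein lipase (Lpl) on the capillary wall hydrolyses that triglyceride. Apoa5 promotes this step and Apoc1 and Apoc3 restrain it, and Apoe directs the remnants to liver receptors. Hepatocytes of the adult make all of these proteins except lipoprotein lipase, which comes chiefly from fat, muscle and macrophages.

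Library totals ranged from 8140065 to 17191129 reads, with a median of 10659453. Levels are given as CPM, counts scaled to a common library size, after trimmed-mean (TMM) scaling. Each gene is read through 1 amplified fragment, so levels were compared between groups and not between genes. Scarb1 was 236 to 410 CPM in the 12 PBS libraries and 3.36 to 56.8 CPM in the 36 treated ones. Hepatocyte transcripts were highest in 2 libraries that lay far from their groups. Albumin (Alb) was 65259.6 CPM in replicate 3 of LX-A3928 at 168 h against 12297 to 25511 in the other 3, and 57903 in replicate 4 of LX-A3928 at 72 h against 35761 to 39047. Smaller departures in albumin were PBS 168 h replicate 1 (50392 CPM against 36568 to 38205) and LX-A2003 168 h replicate 4 (21180 CPM against 14002 to 15199). PBS 168 h replicate 3 was not apart in albumin but had the lowest Apob (4053 CPM) and the highest Apoe (5458 CPM) of its group. Values without a library are given where a call changed or where a result of these 2 LX-A3928 groups is described.

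Few lipoprotein genes were called against PBS at 24 h and 72 h, and at 168 h most were, in opposite directions. The share called over all genes also grew. It was 2.09% to 3.26% at 24 h, 9.8% to 48.2% at 72 h and 48% to 63.9% at 168 h. At 168 h Apob, Apoc1 and Apoe were lower than in PBS livers with every oligonucleotide, and Apoa5 was higher with every oligonucleotide. Mttp was called higher with LX-A1656 and was not called with the other 2. Lpl was called lower with LX-A3928 at 24 h and 72 h and with LX-A1656 at 72 h, and higher with LX-A1656 and LX-A2003 at 168 h.

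The counts behind this are as follows, with a gene called changed when its Benjamini-Hochberg adjusted p from the edgeR quasi-likelihood F test was under 0.05. At 24 h, 0 of the 7 genes were called with LX-A1656 (2.86% of all genes tested) and 0 with LX-A2003 (2.09%). One gene each had an unadjusted p under 0.05 in those 2 comparisons, and DESeq2 also called 0. LX-A3928 had 1 call, Lpl, against 3.26% of all genes. At 72 h, 3 of 7 were called with LX-A1656, where 48.2% of all genes were (24.7% higher and 23.4% lower). LX-A2003 had 0 of 7 (12% of all genes), 2 at an unadjusted p under 0.05 and 1 by DESeq2, and LX-A3928 had 1 of 7 (9.8%).

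At 168 h, LX-A1656 changed 7 of 7 genes, 3 higher and 4 lower, while 63.9% of all genes were called (34.1% higher, 29.7% lower). With LX-A2003 5 of 7 were called, 2 higher and 3 lower, beside 55.1% of all genes (29.8% higher, 25.3% lower). For LX-A3928 the count was 4 of 7, 1 higher and 3 lower, beside 48% of all genes (27.3% higher, 20.7% lower). With shares of this size over all genes, the number of lipoprotein genes called is no result about them. Their median log2 fold change was -0.50, -0.23 and -0.24 for the 3 oligonucleotides in that order, against 0.10, 0.04 and 0.08 over all genes. Their median absolute log2 fold change was 1.14, 0.70 and 0.51, against 0.79, 0.64 and 0.54.

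**Figure D1:**
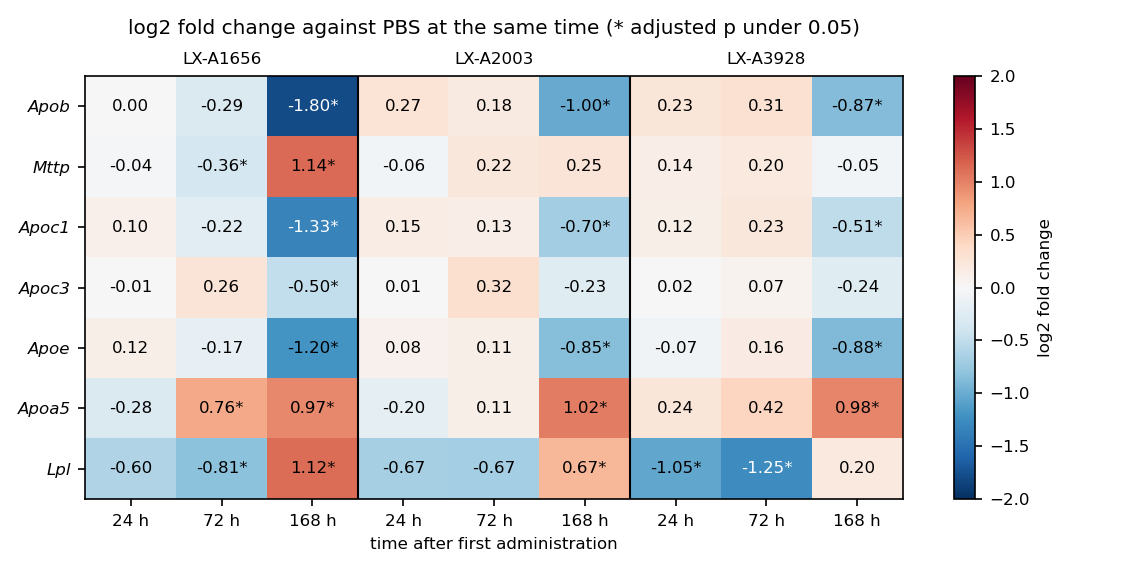
Log2 fold change of each of the 7 genes against PBS livers of the same time, with colour for size and direction and an asterisk where the adjusted p was under 0.05. The 168 h columns hold 16 of the 21 asterisks, with Apob, Apoc1 and Apoe blue and Apoa5 red in all 3 of them.

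Scaling bears on these directions. TMM factors were 0.83 to 0.97 in PBS libraries, 1.05 to 1.31 in LX-A1656 libraries from 72 h on and 0.92 to 1.27 in the other treated libraries at 168 h. With library totals alone, the median of all genes at 168 h moved to 0.56, 0.45 and 0.39 on the log2 scale, and to 0.27 for LX-A1656 at 72 h. Under that scaling the falls of Apob and Apoe at 168 h were still called with all 3 oligonucleotides, as were the rises of Apoa5. The fall of Apoc1 was called with LX-A1656 only, and Apoc3 with LX-A1656 was -0.02 (adjusted p = 0.887). Apoc3 changed sign, uncalled, with LX-A2003 (0.18) and LX-A3928 (0.10). Mttp with LX-A2003 (0.67) and Lpl with LX-A3928 (0.54) became called as higher.

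Promoter sequence is shown for Apob, lower with every oligonucleotide at 168 h, for Apoa5, higher with every one, and for Mttp, higher with LX-A1656. RefSeq windows of the 250 bases before an annotated start (GRCm38.p6) were found for 4 of the 7 genes: Apob, Mttp, Apoe and Apoa5. They are printed 5′ to 3′ on the gene's strand in lower case, with matches to the searched motifs in capitals. The annotated positions are Apob at chr12:7977427-7977676 (plus strand), Mttp at chr3:138143419-138143668 (minus strand) and, for the upstream of 2 annotated starts, Apoa5 at chr9:46268358-46268607 (plus strand).
Apob: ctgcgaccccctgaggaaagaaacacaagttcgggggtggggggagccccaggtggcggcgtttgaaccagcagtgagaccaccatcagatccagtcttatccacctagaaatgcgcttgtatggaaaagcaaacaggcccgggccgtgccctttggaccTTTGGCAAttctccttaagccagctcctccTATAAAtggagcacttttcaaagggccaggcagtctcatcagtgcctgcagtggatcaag
Mttp: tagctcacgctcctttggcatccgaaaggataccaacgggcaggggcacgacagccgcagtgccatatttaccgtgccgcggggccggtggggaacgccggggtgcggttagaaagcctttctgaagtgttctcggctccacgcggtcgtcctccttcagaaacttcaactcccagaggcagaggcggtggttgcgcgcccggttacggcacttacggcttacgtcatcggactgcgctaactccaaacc
Apoa5: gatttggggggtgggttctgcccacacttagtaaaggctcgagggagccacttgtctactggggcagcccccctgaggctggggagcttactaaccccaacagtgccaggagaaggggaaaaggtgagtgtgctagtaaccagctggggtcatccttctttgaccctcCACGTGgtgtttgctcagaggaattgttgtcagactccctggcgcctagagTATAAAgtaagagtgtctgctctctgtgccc

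The search covered both strands. The core promoter box was searched as TATAAA, the E-box as CACGTG, and the C/EBP motif as TTNNGCAA. Nuclear receptors were represented by AGGTCA, HNF4 by CAAAGTCC, HNF1 by GTTAAT and the sterol response element by TCACNCCAC. The Apob window held the C/EBP letters at -90 to -83 from the start and the TATA letters at -60 to -55. The Apoa5 window held the E-box at -82 to -77 and the TATA letters at -31 to -26, and no match overlapped another. Counted from the downstream annotated start of Apoa5, the same letters lie at -107 to -102 and -56 to -51. The window of that start ends at 46268632, next to the GENCODE start of Apoa5 (46268633). None of the 7 motifs was found in the Mttp window, which says only that these letters are not in it. Among 32851 RefSeq promoters of the same length, 12.4% held the TATA letters, 6.02% the E-box, 9.56% the C/EBP letters, 14% AGGTCA, 1.2% CAAAGTCC, 6.43% GTTAAT and 1.05% TCACNCCAC. These matches describe sequence and were not tested as sites. The start used in these livers was not measured, and distances are counted from the RefSeq start. The Mttp window lies inside the longer span that GENCODE gives that gene. The last bases of the Apob window lie past the GENCODE start of Apob (7977648).

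Apob encodes the protein on which each particle is built, and its gene lies on chromosome 12 (GENCODE, GRCm38, 7977648 to 8016835, plus strand). In PBS livers at 168 h it read 5427, 6617, 4053 and 6325 CPM. With LX-A1656 it read 1678, 1562, 1737 and 1480.0 CPM. With LX-A2003 it read 2664, 2485, 2714 and 3333 CPM, and with LX-A3928 3766, 2549.6, 3700.0 and 2239.9 CPM. All 12 treated libraries lay below all 4 PBS libraries, and the LX-A1656 libraries lay below every library of the other 2 oligonucleotides. The fall was 3.47-fold with LX-A1656 (log2 fold change -1.80 ± 0.16 SE, n = 4 a group, adjusted p = 4.46e-13). It was 2.00-fold with LX-A2003 (-1.002 ± 0.16, adjusted p = 9.47e-07) and 1.83-fold with LX-A3928 (-0.87 ± 0.16, adjusted p = 1.49e-05). Without LX-A3928 replicate 3 the last value was -0.97 (adjusted p = 4.93e-06), and all 4 genes called in that group were still called (Apoc1 -0.52, Apoe -0.82, Apoa5 1.01).

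Before 168 h Apob did not differ from PBS by the test. At 24 h group means were 5645 CPM for PBS, 5660.5 for LX-A1656, 6798 for LX-A2003 and 6642 for LX-A3928. All LX-A2003 and LX-A3928 libraries at 24 h were above the PBS range, and neither difference was called (0.27 and 0.23, adjusted p = 0.534 and 0.554). At 72 h they were 5808, 4764, 6598 and 7194 CPM in the same order. The LX-A1656 value at 72 h (-0.29, 95% interval -0.61 to 0.04, adjusted p = 0.138) was called lower only when its replicate 2 was left out (-0.44, adjusted p = 0.0275). In the order of the 12 group means, the LX-A1656 168 h group was lowest and separate from the next, and no other neighbours were separate in their libraries.

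Hepatocyte transcripts also changed in these livers. Summed over 8 hepatocyte markers, libraries held 56851 to 73094 CPM with PBS at 168 h, 31793 to 46964 with LX-A1656, 24569.6 to 33520.3 with LX-A2003 and 21748 to 83534 with LX-A3928. Of the 8 markers, 5, 6 and 6 were lower, and 1, 0 and 0 higher. With LX-A1656 the sum was already lower at 72 h, at 29850 to 47377.5 CPM against 56673 to 64538 with PBS. The other oligonucleotides overlapped PBS at that time. Apob, Apoc1 and Apoe were not called with LX-A1656 at 72 h. The part of hepatocyte transcripts in the fall of Apob, Apoc1 and Apoe was not tested.

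Mttp, on the minus strand of chromosome 3 (138089854 to 138144968), moved against Apob with LX-A1656 at 168 h. PBS livers at 168 h read 183, 191, 151 and 192 CPM, and LX-A1656 livers 484, 352, 351 and 388 CPM. All 4 LX-A1656 libraries of 168 h were above all other libraries of the study in this gene. The rise was 2.20-fold (log2 fold change 1.14 ± 0.14 SE, adjusted p = 1.91e-09). LX-A2003 livers read 257, 194, 152 and 250.4 CPM, 3 of them above the highest PBS library and 1 within the PBS range (0.25, 95% interval -0.03 to 0.53, adjusted p = 0.119). Without that library, replicate 3, the value was 0.38 and was called (adjusted p = 0.0190). LX-A3928 livers read 189, 142, 194 and 168 CPM and overlapped PBS (-0.05, 95% interval -0.33 to 0.23, adjusted p = 0.805).

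At 72 h Mttp was lower with LX-A1656, at 127, 199, 146 and 154 CPM against 192, 193, 204 and 214 CPM in PBS livers. The libraries overlapped and the change was small (-0.36 ± 0.14, adjusted p = 0.0307). The call was lost without any of 5 of the 8 libraries: PBS replicates 3 and 4 and LX-A1656 replicates 1, 3 and 4 (largest adjusted p = 0.140). It was also lost with library totals alone (-0.15, adjusted p = 0.407), with no filter on low counts (adjusted p = 0.0863) and with only the compared groups fitted (adjusted p = 0.0510).

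The ratio of Mttp to Apob within a library does not depend on how libraries are scaled. The log2 ratio of Mttp to Apob counts was -5.12 to -4.75 in PBS livers at 168 h. It was -2.31 to -1.79 with LX-A1656, -4.15 to -3.37 with LX-A2003 and -4.32 to -3.73 with LX-A3928. Each treated library was above all 4 PBS libraries, also in the LX-A2003 and LX-A3928 groups where Mttp itself was not called. The ratio was 7.48-fold, 2.32-fold and 1.78-fold that of PBS. At 72 h with LX-A1656, when Mttp and Apob were both lower in mean, it lay at -5.01 to -4.72, with a mean difference from PBS of -0.06. For Apoa5 over Apob the 168 h ratio was 6.53-fold, 3.95-fold and 3.60-fold that of PBS, again with no overlap. For LX-A1656 that ratio was already 2.09-fold at 72 h.

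**Figure D2:**
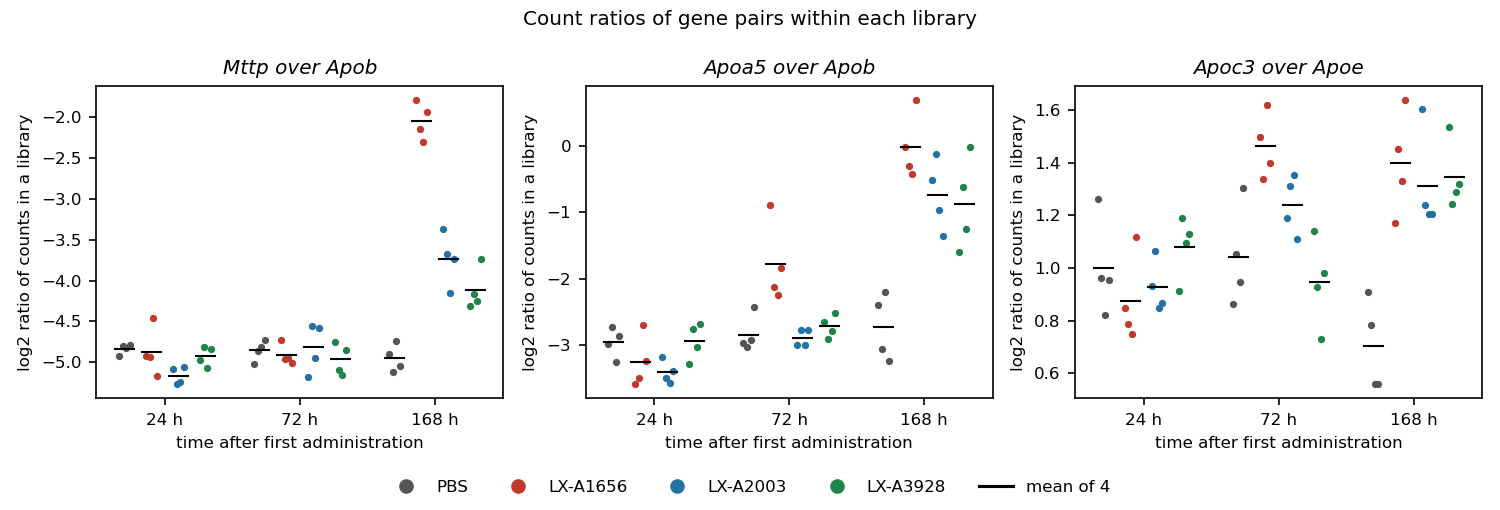
Log2 ratio of counts within each library for Mttp over Apob, Apoa5 over Apob and Apoc3 over Apoe, by time and treatment (points are libraries, bars are means of 4). In the 168 h columns the treated libraries sit above all 4 PBS libraries in each panel, with LX-A1656 apart from the other oligonucleotides for Mttp over Apob.

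Apoc1 and Apoe lie 3.449 kb apart on chromosome 7 (Apoc1 19689481 to 19692660, Apoe 19696109 to 19699188, both on the minus strand). Apoc1 encodes a small exchangeable protein that restrains lipolysis and remnant uptake. PBS livers at 168 h read 16970.4, 10744, 12697 and 10748 CPM of Apoc1, with replicate 1 highest. LX-A1656 livers read 4739, 4534, 4787 and 6233 CPM, LX-A2003 livers 8217, 9963, 7124 and 6271 CPM, and LX-A3928 livers 7416, 9435, 9231 and 9892 CPM. All 12 were below the PBS libraries of 168 h, the group with the highest mean of the 12 groups. PBS libraries read as low as 8900 CPM at 24 h and 9486 CPM at 72 h. The 168 h libraries of LX-A2003 and LX-A3928 overlapped those earlier PBS libraries, and those of LX-A1656 did not. The falls were 2.52-fold (-1.33 ± 0.16, adjusted p = 5.64e-10), 1.62-fold (-0.70 ± 0.16, adjusted p = 0.000186) and 1.42-fold (-0.51 ± 0.16, adjusted p = 0.00596). The LX-A3928 call was lost without PBS replicate 1 (-0.34, adjusted p = 0.0723), with only the compared groups fitted (-0.47, adjusted p = 0.162) and with library totals alone (-0.19, adjusted p = 0.225).

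Apoe, the ligand that brings remnants to the liver's receptors, read 4184, 3266, 5458 and 3682 CPM in PBS livers at 168 h. LX-A1656 livers read 2050.1, 1693, 1632 and 1849 CPM, LX-A2003 livers 2077, 2872, 2347 and 1909 CPM, and LX-A3928 livers 2006, 2469.5, 1940.2 and 2579.6 CPM. No treated library of 168 h reached the lowest PBS library of that time. Apoe fell 2.30-fold, 1.80-fold and 1.84-fold (log2 fold changes -1.199, -0.85 and -0.88, each ± 0.16 SE, largest adjusted p = 1.45e-05). These calls held under every setting tried and with any single library left out, at smaller sizes of -0.72, -0.43 and -0.55 with library totals alone. In PBS livers themselves the mean was 2952 CPM at 24 h and 4147 CPM at 168 h, and this drift was not called.

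Apoc3, an inhibitor of lipoprotein lipase and of remnant uptake, is on chromosome 9 (46232933 to 46235636, minus strand) and had the smallest fold changes at 168 h of the 5 apolipoproteins among these 7 genes. PBS livers at 168 h read 7856, 5629, 8047 and 5424 CPM, in 2 levels. LX-A1656 livers read 4621, 4628, 4106 and 5753 CPM, of which 1 overlapped PBS (-0.50 ± 0.15, adjusted p = 0.00334). LX-A2003 gave -0.23 (95% interval -0.53 to 0.06) and LX-A3928 gave -0.24 (-0.54 to 0.06), neither called. Relative to Apoe in the same library, Apoc3 was 1.62-fold, 1.53-fold and 1.56-fold higher than in PBS at 168 h, with no overlap. Relative to Apoc1 it was 1.79-fold, 1.38-fold and 1.202-fold higher, with overlap for LX-A3928 only. At 72 h Apoc3 was highest with LX-A2003, at 8744, 7284, 7256 and 6275 CPM against 6484, 5754, 5483 and 5978 CPM in PBS, and this was not called over all libraries (0.32, adjusted p = 0.177). With library totals alone Apoc3 was called higher with LX-A1656 at 72 h (0.48, adjusted p = 0.00289, against 0.26 and 0.143 with TMM).

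**Figure D3:**
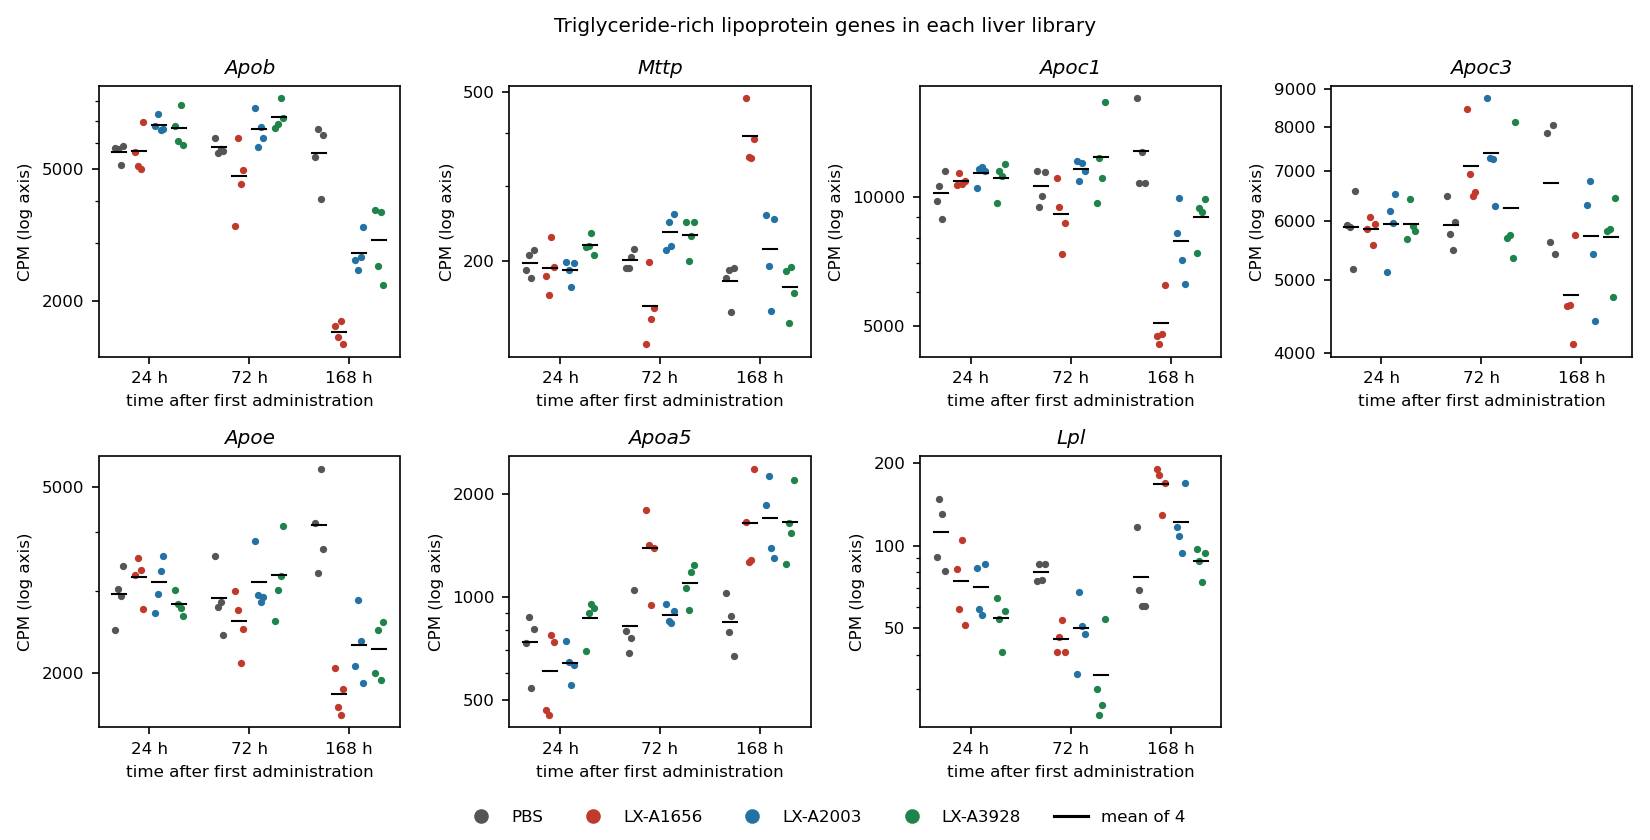
CPM of each of the 7 genes in every library, on a log axis, by time and treatment (points are libraries, bars are means of 4). At 168 h the treated libraries of Apob, Apoc1 and Apoe lie below the PBS libraries of that time, those of Apoa5 lie above them, and for Mttp LX-A1656 stands above the rest.

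Apoa5 encodes a protein made at a low level by hepatocytes that promotes lipolysis by lipoprotein lipase. It shares its cluster on chromosome 9 (46268633 to 46271919, plus strand) with Apoc3, 33 kb away. PBS livers at 168 h read 1028, 792, 883 and 673 CPM. LX-A1656 livers read 1659, 1265, 1288 and 2379 CPM, LX-A2003 livers 1864, 2273, 1392 and 1304 CPM, and LX-A3928 livers 1250.1, 1655, 1547 and 2199 CPM. Each treated library exceeded all PBS libraries. The rises were 1.95-fold (0.97 ± 0.21, adjusted p = 8.9e-05), 2.02-fold (1.02 ± 0.21, adjusted p = 5.85e-05) and 1.97-fold (0.98 ± 0.21, adjusted p = 0.000129). They were called under every setting tried and with any single library left out. Unlike for Apob, Mttp and Apoc1, no difference between oligonucleotides was called for Apoa5 at 168 h.

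With LX-A1656, Apoa5 was already higher at 72 h, at 1802, 1421, 950.0 and 1393 CPM against 793, 685, 756 and 1052 CPM in PBS livers. All but 1 of the LX-A1656 libraries lay above the PBS range (0.76 ± 0.21, adjusted p = 0.00218). At 24 h the same oligonucleotide had read 468, 452, 773 and 736 CPM, within or below the PBS values of 734, 873, 541 and 804. The effect of LX-A1656 thus differed between 72 h and 24 h by 1.04 ± 0.29 (adjusted p = 0.00532).

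Lpl encodes the lipase itself and lies on chromosome 8 (68880491 to 68907448, plus strand). In PBS livers it read 90.8, 147, 131 and 81.1 CPM at 24 h, 74.7, 85.5, 74.8 and 85.8 CPM at 72 h and 117, 69.1, 60.3 and 60.3 CPM at 168 h. At 24 h LX-A3928 livers read 64.6, 54.3, 41.1 and 57.8 CPM, all below PBS (-1.05 ± 0.24, adjusted p = 0.00579). LX-A1656 (82.2, 58.6, 105 and 51.2 CPM) and LX-A2003 (82.9, 59.0, 55.9 and 85.6 CPM) overlapped PBS, with values of -0.60 (95% interval -1.08 to -0.12, adjusted p = 0.212) and -0.67 (-1.14 to -0.19, adjusted p = 0.155).

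At 72 h Lpl was lower still with LX-A3928, at 30.1, 24.2, 26.4 and 54.2 CPM (-1.25 ± 0.24, adjusted p = 0.000237). Replicate 4, with the most albumin, was the highest of the 4, and without it the value was -1.57 (adjusted p = 1.26e-05). LX-A1656 livers read 41.1, 46.4, 53.8 and 41.2 CPM and were likewise below all PBS libraries (-0.81 ± 0.24, adjusted p = 0.00410). LX-A2003 livers read 34.2, 67.7, 51.2 and 47.9 CPM, also without overlap. That value (-0.67, adjusted p = 0.0553) missed the threshold and passed it with DESeq2 (adjusted p = 0.0450).

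At 168 h the direction was the opposite. LX-A1656 livers read 190.4, 180.5, 129 and 168 CPM, above all PBS libraries (1.12 ± 0.24, 2.18-fold, adjusted p = 6.86e-05). LX-A2003 livers read 117, 108, 94.2 and 169 CPM, all above 3 of the PBS libraries and 1 above the fourth (0.67 ± 0.24, adjusted p = 0.0146). That call was lost without PBS replicate 3, PBS replicate 4 or LX-A2003 replicate 4 (adjusted p up to 0.0970). LX-A3928 livers read 97.1, 87.9, 73.6 and 94.4 CPM, within the PBS range (0.20, 95% interval -0.27 to 0.68). The change of the effect from 72 h to 168 h was 1.94 ± 0.34, 1.35 ± 0.34 and 1.45 ± 0.34 for the 3 oligonucleotides (adjusted p = 1.51e-05, 0.00173 and 0.00118).

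Marker transcripts of cells other than hepatocytes moved over the same times. The 9 measured markers of monocytes and recruited macrophages summed to 134 to 181 CPM in PBS livers at 168 h. They summed to 1110.1 to 1682 with LX-A1656, 733 to 998 with LX-A2003 and 523 to 625 with LX-A3928, with 9, 9 and 8 of 9 called higher. At 72 h the sum was 317 to 601 CPM with LX-A1656 against 132 to 157 with PBS, while Lpl was low. Kupffer cell markers (8 genes) summed to 250.1 to 302 CPM with PBS at 168 h, 506 to 798 with LX-A1656, 559 to 751 with LX-A2003 and 468 to 702 with LX-A3928. Of the 7 tested, 5 were higher with each, 1 was lower with LX-A1656, and C1qa was at 0 in the PBS libraries of that time.

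Sinusoidal endothelial markers (7 genes) had a median sum below that of PBS at each time with each oligonucleotide. Their sum was 279 to 317 CPM in PBS at 24 h and 154 to 171 with LX-A1656, 244 to 279.0 with LX-A2003 and 235 to 257 with LX-A3928. At 72 h it was 290 to 328 with PBS and 65.3 to 79.9, 158 to 174 and 149 to 175 with the oligonucleotides. At 24 h 3, 2 and 2 of the 7 were called lower, and at 72 h 5, 4 and 4. Of all genes, 2.86%, 2.09% and 3.26% were called in either direction at 24 h, and 48.2%, 12% and 9.8% at 72 h. The lowest sum at 24 h was with LX-A1656. Lpl did not differ between oligonucleotides by the test at that time. At 168 h 5 of 7 were lower with each oligonucleotide, at sums of 92.4 to 194 CPM against 321 to 330.1 with PBS. The 5 adipocyte markers summed to 6.5 to 12.6 CPM with PBS at 168 h, 46.9 to 67.2 with LX-A1656, 12.2 to 23.2 with LX-A2003 and 10.2 to 63.1 with LX-A3928. Fabp4, which macrophages also transcribe, made up nearly all of it, at 6.46 to 12.2 CPM with PBS, 46.9 to 65.9 with LX-A1656 and 62.6 in LX-A3928 replicate 3. Adipoq and Lep had 0 counts in every LX-A1656 and LX-A2003 library at 168 h. Plin1 had 0 counts in the PBS libraries of that time and was detected with each oligonucleotide. Adipoq was detected with LX-A3928. Stellate cell and fibroblast markers (7 genes) were also higher in sum at 168 h. They summed to 444 to 470 CPM with PBS, 1400 to 1850 with LX-A1656, 858 to 1373 with LX-A2003 and 762 to 1553 with LX-A3928. At 72 h their sum was 411 to 439 CPM with PBS and 410 to 462 with LX-A1656. The part of these cell types in the Lpl values was not tested.

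**Figure D4:**
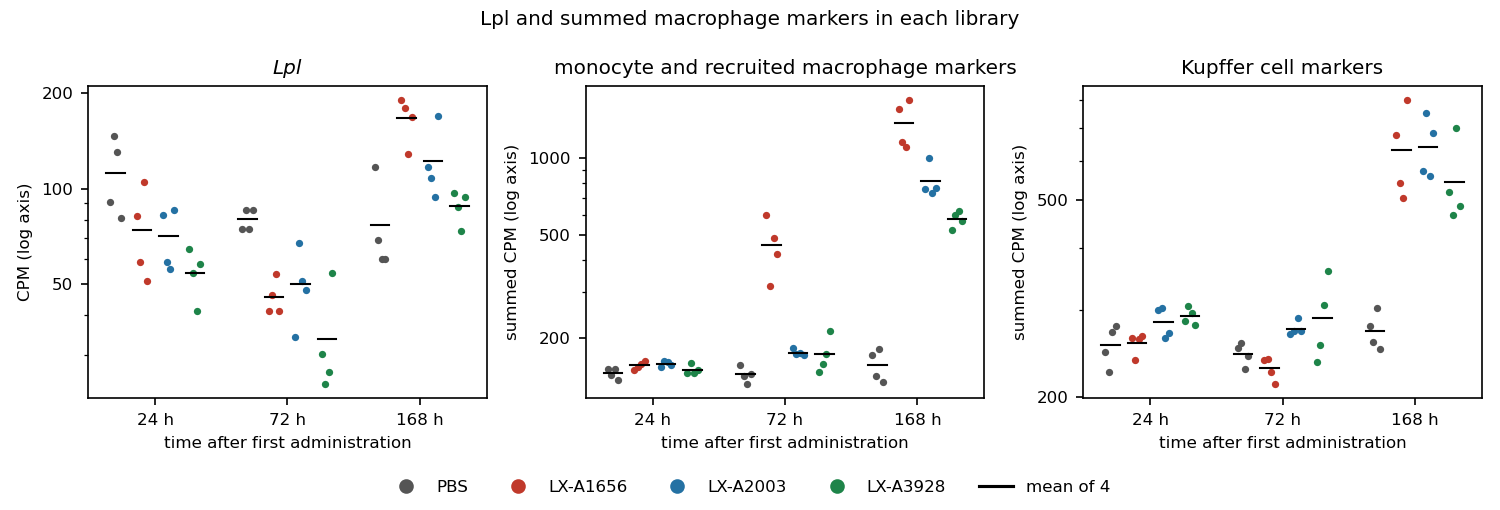
CPM of Lpl (left) and the summed CPM of monocyte and recruited macrophage markers (middle) and of Kupffer cell markers (right) in each library, on log axes (points are libraries, bars are means of 4). Lpl is below PBS at 72 h and above it with LX-A1656 at 168 h, and both marker sums are above PBS in all treated libraries at 168 h.

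The oligonucleotides were compared with each other at each time, 9 pairs for each gene, with p-values adjusted over all genes and, for each gene, over its 9 pairs. Every pair called by the first adjustment was called by the second, and no other was. At 24 h no lipoprotein gene differed between LX-A2003 and LX-A1656 (0.284% of all genes), LX-A3928 and LX-A1656 (2.9%) or LX-A3928 and LX-A2003 (0.15%). At an unadjusted p under 0.05 the counts were 0, 1 and 1 of 7, and DESeq2 called 0 in each. LX-A3928 and LX-A2003 did not differ by the test at 72 h (0.718% of all genes) or 168 h (8.1%) either, with 1 gene at an unadjusted p under 0.05 at each time and 0 by DESeq2. The 95% interval of their difference at 168 h was -0.19 to 0.45 for Apob, -0.58 to -0.02 for Mttp, -0.12 to 0.50 for Apoc1, -0.35 to 0.29 for Apoe, -0.46 to 0.38 for Apoa5, -0.30 to 0.29 for Apoc3 and -0.94 to 0.0042 for Lpl.

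LX-A1656 differed from both. At 168 h Apob was 1.73-fold higher with LX-A2003 than with LX-A1656 (0.79 ± 0.16, 9-pair adjusted p = 4.9e-05). Apoc1 was 1.56-fold higher (0.64 ± 0.16) and Mttp 1.84-fold lower (-0.88 ± 0.14), making 3 of 7 genes where 32.1% of all genes were called. LX-A3928 against LX-A1656 gave 4 of 7 (41.7% of all genes): Apob 0.92 ± 0.16, Apoc1 0.83 ± 0.16, Mttp -1.18 ± 0.14 and Lpl -0.92 ± 0.24. The largest 9-pair adjusted p among these 4 was 0.00288, for Lpl. Without LX-A3928 replicate 3 these 4 were still called (0.82, 0.82, -1.24 and -0.84), and none of the 7 was called between LX-A3928 and LX-A2003. Apoe was not called in either pair, with intervals of 0.03 to 0.67 and -0.0024 to 0.64. Without LX-A2003 replicate 4, Apoe (0.43, adjusted p = 0.0404) and Lpl (-0.65, adjusted p = 0.0374) also differed between LX-A2003 and LX-A1656.

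At 72 h LX-A1656 livers held less Apob and Mttp than either. The differences were 0.47 ± 0.16 and 0.58 ± 0.14 for LX-A2003 and 0.59 ± 0.16 and 0.56 ± 0.14 for LX-A3928. Each pair had 3 of 7 genes called (35.9% and 40.6% of all genes). The last gene was Apoa5, lower with LX-A2003 (-0.65 ± 0.21), and Apoc1, higher with LX-A3928 (0.44 ± 0.15). The Apob and Apoa5 differences from LX-A2003 were lost without LX-A1656 replicate 1 (adjusted p = 0.121 and 0.0786), and that of Apob also without LX-A2003 replicate 1 (0.0741). The Apoc1 difference was lost without LX-A1656 replicate 3 (0.0942) or LX-A3928 replicate 4 (0.177). Without that LX-A3928 library, Lpl was called lower than with LX-A1656 (-0.76, adjusted p = 0.0114). With library totals alone, Apob was no longer called in either pair (0.24 and 0.31), nor were Mttp (0.27) and Apoc1 (0.14) against LX-A3928.

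The effects against PBS changed mostly between 72 h and 168 h. That change was called for 6 of 7 genes with LX-A1656 (30.1% of all genes), 6 with LX-A2003 (29.7%) and 4 with LX-A3928 (23%). Apob moved by -1.51, -1.19 and -1.18 on the log2 scale, Apoe by -1.03, -0.96 and -1.04, and Apoc1 by -1.12, -0.83 and -0.73. Part of the Apoe and Apoc1 changes lies in the PBS groups. From 72 h to 168 h the PBS mean went from 2899 to 4147 CPM for Apoe and from 10620 to 12790 CPM for Apoc1. For Apob it went from 5808 to 5606 CPM. The Apoc1 change with LX-A3928 was lost without LX-A3928 72 h replicate 4 (-0.56, adjusted p = 0.0525) or PBS 168 h replicate 1 (-0.57, adjusted p = 0.0531). With LX-A2003 Apoc3 moved by -0.55, a call kept in 6 of 16 fits that left out 1 library. Apoa5 moved by 0.90 there, a call lost without PBS 72 h replicate 4 (0.76, adjusted p = 0.0533) or LX-A2003 168 h replicate 2 (0.74, adjusted p = 0.0577). Mttp moved by 1.49 with LX-A1656, and by 0.03 and -0.25, neither called, with the others. Between 24 h and 72 h, 1 gene was called with LX-A1656 (30.2% of all genes). For LX-A2003 (2.71%) and LX-A3928 (1.26%) it was 0 of 7, with 0 at an unadjusted p under 0.05 and 0 by DESeq2. In PBS livers 0 of 7 genes were called between 24 h and 72 h (0.0789% of all genes), 24 h and 168 h (1.03%) or 72 h and 168 h (0.0316%). At an unadjusted p under 0.05 these counts were 1, 3 and 1, and by DESeq2 0.

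Within groups, 6 of the 7 genes varied in 2 sets, described here with no test. After removing group means, log2 CPM of Apoc1, Apoc3, Apoe and Apoa5 varied together over the 48 libraries, with Pearson r of 0.77 for Apoc1 and Apoc3, 0.70 for Apoc3 and Apoe and 0.69 for Apoc1 and Apoa5. Apob went with Mttp (r = 0.47) and against Apoc3 (r = -0.42) and Apoe (r = -0.39). Lpl went with Mttp (r = 0.37) but not with Apob (r = -0.17) or the other 4 (r of 0.01 to 0.07), and was placed in neither set. Apoa5 varied with the other small apolipoproteins from library to library within a group (r = 0.54 with Apoc3 and, more weakly, 0.31 with Apoe). Over the 12 group means its r with them was -0.28 to -0.76. Libraries share scaling, which enters all these values.

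For each gene, the genes of most like pattern over the 12 group means were sought among 7470 genes of at least 10 CPM. Apob was closest to Mtfr1 (r = 0.99), Osbpl1a and Fabp1, the liver fatty acid binding protein. Apoc1 was closest to its chromosomal neighbour Apoc4 (r = 0.99), then to Alas2 and D2hgdh. Apoe was close to Ndufs7 (r = 0.97) and Pex5, and Apoc3 to Gpd1 (r = 0.94), Tm7sf2 and Tkfc. Mttp was closest to Slc39a14 (r = 0.94), Slc25a22 and Tango2, Apoa5 to Snrpc (r = 0.96), Dync1li1 and Cmpk1, and Lpl to Nid2 (r = 0.93), Stx7 and Gucy1b3. Over the 48 libraries the values for the first gene named were 0.96, 0.89, 0.85, 0.82, 0.77, 0.79 and 0.69 in that order of genes.

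Other genes of particle assembly were read at 168 h, when 63.9% of all genes were called for LX-A1656, 55.1% for LX-A2003 and 48% for LX-A3928, so shares near these say nothing particular of a list. Of 15 tested, 3 rose and 8 fell with LX-A1656, 2 and 6 with LX-A2003 and 3 and 6 with LX-A3928 (median log2 fold change -0.50, -0.26 and -0.32). Ces1d and Aadac, hydrolases linked to the triglyceride stores used for assembly, fell with every oligonucleotide. The log2 fold changes with LX-A1656, LX-A2003 and then LX-A3928, the order also used for the genes that follow, were -6.20, -4.31 and -3.61 for Ces1d and -3.00, -2.07 and -1.05 for Aadac. A1cf, a cofactor of the editing of Apob RNA, fell (-2.02, -1.16 and -0.98), while Apobec1, the editing enzyme, rose (2.21, 1.75 and 1.73). Tm6sf2, needed for lipid loading of particles, rose (1.15, 1.75 and 1.62). Ces1d belongs to a family of near-identical carboxylesterases and how reads were assigned among them was not tested.

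Of the 12 tested genes of lipolysis, 2 rose and 8 fell with LX-A1656, 3 and 7 with LX-A2003 and 1 and 7 with LX-A3928 (medians -1.02, -0.70 and -0.58). Hepatic lipase (Lipc) fell (-4.93, -2.17 and -1.48). Lmf1, the factor that folds lipoprotein lipase, fell (-2.06, -1.38 and -1.15). Angptl4, a secreted inhibitor of the lipase, rose with LX-A1656 (2.24) and LX-A2003 (0.89) and was -0.01 with LX-A3928, not called. Pltp, the phospholipid transfer protein, rose (1.60, 2.09 and 1.47).

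Of 7 tested genes of triglyceride synthesis, 3 rose and 3 fell with LX-A1656, and 3 rose and 2 fell with each of the others (medians -0.04, 0.11 and -0.16). The phosphatidate phosphatases Lpin1 (2.82, 2.12 and 1.06) and Lpin2 (1.43, 1.46 and 1.14) rose, and the acyltransferase Agpat2 fell (-3.05, -1.38 and -1.68). Among 12 genes of remnant receptors, 5 rose and 4 fell, 4 rose and 2 fell, and 2 rose and 2 fell (medians 0.02, 0.19 and -0.10). Lrpap1, a chaperone of these receptors, fell with each oligonucleotide (-0.65, -0.70 and -0.64).

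Regulators of the lipoprotein genes mostly fell. Of 16 tested, 1 rose and 11 fell with LX-A1656 and 0 rose and 11 fell with each of the others (medians -0.67, -0.59 and -0.67). Mlxipl, which encodes the carbohydrate-response factor ChREBP, fell (-3.48, -2.82 and -2.38), as did Cebpa (-2.44, -1.34 and -1.02). Ppargc1a, a coactivator, rose with LX-A1656 (1.63) and fell with the others (-1.23 and -1.18). Of 9 other apolipoprotein genes tested, 2 rose and 7 fell, 2 rose and 6 fell, and 2 rose and 6 fell (medians -1.42, -0.72 and -0.43). Apoa2, of high-density lipoprotein, fell (-3.07, -1.83 and -1.10). Without LX-A3928 replicate 3, a check chosen after seeing the data, 2 assembly genes rose and 6 fell with LX-A3928, 2 of the other apolipoproteins rose and 5 fell (median -0.72), and the counts of the other 4 lists were equal, though not always of the same genes. The genes named above in that group were called there with the same sign, or in the case of Angptl4 again not called. Aadac moved most, to -2.02, and Ces1d, Lipc and Apoa2 were -3.74, -1.87 and -1.38. These lists have no test of their own, and over all genes 4326, 3775 and 3464 rose and 3766, 3212 and 2623 fell. The lists were read under TMM scaling only. With library totals alone the median of all genes at 168 h was 0.56, 0.45 and 0.39, so small falls and list medians may depend on the scaling.

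**Figure D5:**
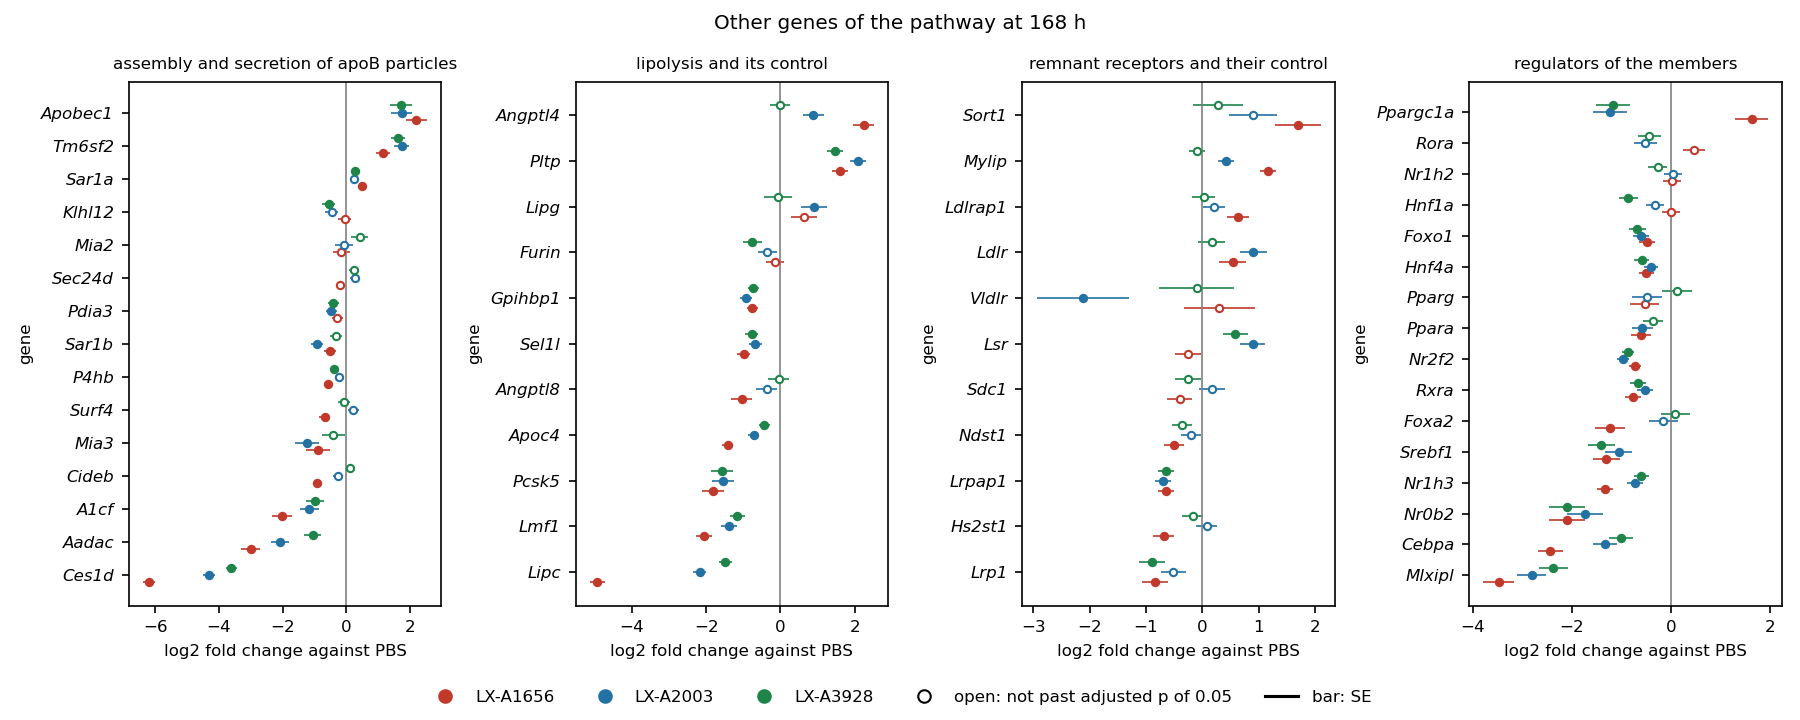
Log2 fold change against PBS at 168 h (points, with SE bars) for most other genes of particle assembly, lipolysis, remnant receptors and the regulators, ordered in each panel by the LX-A1656 value. Filled points passed the adjusted p of 0.05, and Ces1d and Lipc lie lowest in their panels, with LX-A1656 leftmost.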

How the data were processed

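Libraries were made from liver RNA with an Ion AmpliSeq mouse transcriptome kit, per the labels' protocols. The authors deposited whole-number counts of reads for each gene, and the aligner, build and strand setting are not stated in the labels. From these counts, genes were filtered with filterByExpr over the 12 groups (12672 of 23930 kept, at least 99.891% of the counts of a library). Libraries were scaled by TMM, and 1 robust quasi-likelihood model with a mean for each group was fitted over the 48 libraries in edgeR 4.0.16 in R 4.3.3. Residual degrees of freedom were 36. P-values were adjusted over all genes tested in each of 27 comparisons, and errors of fold changes are standard errors. The test was also run on simulated counts of the same groups. There only a small share of genes was changed, equally up and down, in LX-A1656 at 24 h. That run does not check comparisons in which much of the transcriptome moved.

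The genes, lists and comparisons were chosen with earlier results of these data known. Named genes are all members, Scarb1, up to 3 called genes in each direction and list by smallest p, and the 3 most like each member. Alternatives were library totals, DESeq2 size factors, DESeq2 1.42.0, no filter, only the groups compared, a replicate block and each library left out. Replicates of a group differed beyond sampling noise (chi-square per degree of freedom 5.79 to 220 over 72 pairs). Gene positions are from GENCODE on GRCm38, and promoter sequences from RefSeq on GRCm38.p6; the build behind the counts was not needed, since genes were matched by symbol. Where a group had 0 counts no fold is printed. Some genes of these lists and likeness ranks are counted in the totals but not reported here.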

Additional observations from a re-analysis of the deposited data

Results flagged for a closer look

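In 5 of the 84 sets of 4 libraries (7 genes in 12 groups), 1 library lay far from the other 3, and chance sets apart about 1 in 20 such sets. They were Apob in PBS 24 h replicate 3 (5154 CPM, lowest), Apoc1 in LX-A1656 168 h replicate 4 (6233 CPM, highest) and Apoc3 in LX-A3928 72 h replicate 4 (8141 CPM, highest). The others were Apoe in LX-A2003 72 h replicate 1 (3835 CPM, highest) and Lpl in PBS 168 h replicate 1 (117 CPM, highest).

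The effect of an oligonucleotide against PBS differed between consecutive times in 17 of 42 tests of the difference (log2 scale, adjusted p under 0.05, edgeR). With LX-A1656 the 168 h minus 72 h differences were -1.51 for Apob, 1.49 for Mttp, -1.12 for Apoc1, -0.76 for Apoc3, -1.03 for Apoe and 1.94 for Lpl, and Apoa5 differed by 1.04 between 72 h and 24 h. With LX-A2003 the 168 h minus 72 h differences were -1.19 for Apob, -0.83 for Apoc1, -0.55 for Apoc3, -0.96 for Apoe, 0.90 for Apoa5 and 1.35 for Lpl. With LX-A3928 they were -1.18 for Apob, -0.73 for Apoc1, -1.04 for Apoe and 1.45 for Lpl. PBS libraries are shared by the oligonucleotides at each time, so these values are not independent of each other.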

How the results depend on the processing

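Of the 51 calls among lipoprotein genes (21 against PBS, 13 between oligonucleotides, 17 between times), 37 held under all 6 other settings and with each library left out (16, 8 and 13), and no called value changed sign. Limits are the 4 libraries a group, unknown doses and the scaling of livers in which much of the transcriptome moved; Lpl rested on 219 to 3023 counts a library. Replicate numbers did not pair libraries (9 of 72 same-number correlations over 0.1, median -0.0028), and the replicate block changed no call of these genes; it gave 8036 genes called for LX-A1656 at 168 h against 8092.

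Genes called moved by over 1.5 times as follows. With only the compared groups fitted, against PBS the counts were 803, 754 and 1435 at 24 h for LX-A1656, LX-A2003, LX-A3928 (363, 265 and 413 with all libraries), 2509 for LX-A2003 at 72 h (1524) and 3208 for LX-A3928 at 168 h (6087). For pairs they were 154 (A2003 minus A1656, 36), 1455 (A3928 minus A1656, 368) and 77 (A3928 minus A2003, 19) at 24 h, and 2870 (A3928 minus A1656, 5278) and 29 (A3928 minus A2003, 1026) at 168 h. For changes of effect they were 993 and 397 from 24 h to 72 h (LX-A2003 343, LX-A3928 160) and 1679 from 72 h to 168 h (LX-A3928, 2918). DESeq2 gave 404 for LX-A2003 at 24 h, 89 and 137 for A2003 minus A1656 at 24 h and A3928 minus A2003 at 72 h (91), and 282 for the LX-A3928 change to 72 h. No filter gave 22, 229 and 216 for A2003 minus A1656 and A3928 minus A1656 at 24 h and the LX-A2003 change to 72 h. Lipoprotein genes called with LX-A2003 at 72 h numbered 1 with library totals, 1 with DESeq2 and 2 with the compared groups alone (0 otherwise), and the LX-A1656 change to 72 h had 2 with library totals (1). The cause was not tested.

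Leaving out 1 library gave 239 to 314, 135 to 214 and 248 to 332 genes against PBS at 24 h for the 3 oligonucleotides. For the pairs it gave 11 to 39, 159 to 462 and 6 to 24 at 24 h, 49 to 133 for A3928 minus A2003 at 72 h and 230 to 1807 at 168 h, lowest without LX-A3928 replicate 3. The LX-A2003 change to 72 h had 222 to 351. Lipoprotein genes called were 0 to 1 for LX-A2003 at 72 h (1 without its replicate 2, Lpl) and 3 to 5 for A2003 minus A1656 at 168 h (5 without LX-A2003 replicate 4).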
